A study of Mus musculus with 6 samples.

Results

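The transcripts described here encode the enzymes and carriers of the glutamate-glutamine cycle of the retina. The group was set by name and holds 9 of the 55376 genes counted: Glul, Glud1, Slc1a1, Slc1a2, Slc1a3, Slc1a7, Slc17a7, Slc38a1 and Slc38a3. Whole retinas were sequenced from 3 wild-type (WT) and 3 Wfs1-/- (Wfs1-KO) mice, 1 library per mouse, all at 240 days after birth and without treatment. The sample labels give a C57x129 strain for both genotypes, whereas the methods give a C57BL/6 J background. The mutant mice carry a germ-line deletion of exon 8 of Wfs1, which encodes the endoplasmic reticulum protein wolframin, so that every cell of the retina is mutant. Wfs1 itself had 61.4 to 69.9 CPM (counts scaled to library size, with TMM factors) in the WT retinas and 0.9 to 11.5 CPM in the Wfs1-KO retinas, with no overlap. Its log2 fold change was -3.15 in the edgeR fit of all 6 retinas, with an adjusted p of 0.979. When Wfs1-KO replicate 2, described below, was left out, edgeR gave -2.64 with an adjusted p of 2.8e-05. DESeq2 on all 6 retinas gave -3.17, with an adjusted p of 0.00092. The edgeR fit of all 6 retinas thus did not call the targeted gene itself.

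Photoreceptors and bipolar cells release glutamate from vesicles filled by a vesicular transporter. Carriers of the Slc1a family then clear glutamate from the extracellular space, and in the retina much of this uptake falls to the Müller glia, the main supporting cell of this tissue. Within the Müller cell, glutamine synthetase combines glutamate with ammonia to form glutamine, which leaves the glia and enters neurons through Slc38a carriers and is there turned back into glutamate. Glutamate dehydrogenase removes the amino group of glutamate in the mitochondria and passes its carbon skeleton to the citric acid cycle.

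The RefSeq promoter table (GRCm38.p6, the build also called mm10) held a window for 7 of the 9 genes, all but Slc38a1 and Slc38a3. The 250 bases before the start are shown for Glul, the gene with the smallest p-value between genotypes, for Slc17a7, the member closest to it in its pattern over the 6 retinas, and for Slc1a3, another gene of Müller glia, whose genotypes overlapped. Capitals mark matches, on either strand, to the CCAAT box (CCAAT), the GC box (GGGCGG), the TATA box (TATAAA) and the CRX-type motif of photoreceptor genes (TAATCC); matches that overlap form 1 capital run.
Glul, chr1:153899679-153899928, plus strand: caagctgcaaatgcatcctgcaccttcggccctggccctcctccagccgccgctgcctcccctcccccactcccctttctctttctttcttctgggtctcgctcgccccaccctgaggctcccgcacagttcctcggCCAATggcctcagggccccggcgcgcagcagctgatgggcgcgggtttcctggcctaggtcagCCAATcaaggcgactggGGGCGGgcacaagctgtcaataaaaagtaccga
Slc17a7, chr7:45163671-45163920, plus strand: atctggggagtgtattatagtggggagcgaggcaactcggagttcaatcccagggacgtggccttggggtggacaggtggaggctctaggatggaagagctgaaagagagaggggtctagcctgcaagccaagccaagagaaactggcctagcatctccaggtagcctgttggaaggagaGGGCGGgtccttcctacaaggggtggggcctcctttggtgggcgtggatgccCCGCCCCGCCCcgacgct
Slc1a3, chr15:8710808-8711057, minus strand: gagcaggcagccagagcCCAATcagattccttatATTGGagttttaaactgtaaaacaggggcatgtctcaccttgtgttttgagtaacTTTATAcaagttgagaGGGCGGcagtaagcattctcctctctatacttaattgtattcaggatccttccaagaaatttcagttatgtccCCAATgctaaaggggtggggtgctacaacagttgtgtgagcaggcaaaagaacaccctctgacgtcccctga
The Glul window held 2 CCAAT boxes and 1 GC box, and 64.8% of its bases were G or C. The Slc17a7 window held 3 GC boxes, 2 of them overlapping, and no CCAAT box. The Slc1a3 window held 3 CCAAT boxes, 1 GC box and 1 TATA box, and its G and C content was 44.8%. The RefSeq starts of all 3 genes lie outside the genes as annotated for the counts. These begin at 153899944 for Glul and 45163949 for Slc17a7, and end at 8710764 for Slc1a3. For Slc1a3 the bases after the RefSeq start were also not found in the annotated transcripts, unlike those of the other 6 genes. No TAATCC was found in these 250 bases of any of the 7 genes. Over the 32817 windows of the same length in the table, 33.8% held a CCAAT box, 10.1% at least 2 of them and 2.79% at least 3. A GC box was found in 32.7%, at least 3 in 8.47%, a TATA box in 12.4% and TAATCC in 6.25%, with a median G and C content of 52.4%.

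Total counts ranged from 17916885 (WT replicate 3) to 101334381 (Wfs1-KO replicate 1), and the 9 genes together took 0.674% to 0.751% of the counts in the WT retinas. In Wfs1-KO replicates 1, 2 and 3 they took 0.631%, 0.448% and 0.656%. The lowest count of any of the 9 genes in any library was 590 (Slc1a1 in WT replicate 3), so that counting error was small for all of them. Wfs1-KO replicate 2 stood apart from the other retinas, with a mean correlation to them of 0.918 across genes against 0.962 to 0.971 for the others, and the fold changes, ratios and list medians are given with and without it. WT replicate 3 came from a male by its Xist (4 counts) and Ddx3y (1137 counts), whereas the other 5 retinas had at least 10583 counts of Xist and at most 2 of Ddx3y. The genotypes therefore differ in the sex of 1 mouse. Since these are whole retinas, fewer cells of a type and less RNA per cell cannot be told apart.

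In the WT retinas the 9 genes spanned about 2 orders of magnitude in level per exon length, and 2 of them were among the 33 most abundant of the 18547 tested genes. On the RPKM scale (CPM per kilobase of exon), Glul, which encodes glutamine synthetase, had a level of 927 ± 41.5 (SD, n = 3) and ranked 28 among all tested genes. Slc17a7, the vesicular glutamate transporter of photoreceptors and bipolar cells, had a level of 828 ± 91.7 (SD, n = 3) and ranked 33. The ranges of these 2 genes overlapped. The third level was that of Slc38a3, the glutamine carrier of Müller glia, at 134 ± 11.8, which was 6.2-fold below Slc17a7 with no overlap. Slc1a3, the glutamate carrier of Müller glia also named GLAST, was 2.82-fold below Slc38a3, at 47.4 ± 3.2, again with no overlap.

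Slc1a7, the carrier of photoreceptor and bipolar cell terminals, had 40.4 ± 4.86 RPKM and Glud1, glutamate dehydrogenase, had 38.1 ± 0.66. Neighbours from Slc1a3 through Slc1a7 to Glud1 overlapped in their ranges and were not separated beyond their spread. Slc38a1, the glutamine carrier found on neurons, had 26.8 ± 5.12 RPKM and Slc1a2, the carrier of cones and bipolar cells, had 25.4 ± 5.38, with overlapping ranges. Slc1a1, the carrier of inner retinal neurons, was the lowest at 8.8 ± 0.86 RPKM, 2.89-fold below Slc1a2 without overlap (SD, n = 3 for each). In the Wfs1-KO retinas the mean levels kept the same order, except that Slc1a2 and Slc38a1, at 25.42 and 25.41 RPKM, exchanged places.

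Reads of overlapping genes on opposite strands cannot be told apart without strand, and the strand setting of the counting is not given in the sources used here. For Slc1a1, 2631 exon bases of 4430402I18Rik lie on the opposite strand of its own exons, so that the Slc1a1 level, from an exon length of 3800 bases, is uncertain. The annotated overlaps of exons of the other genes were at most 189 bases, in Slc1a2.

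**Figure D1:**
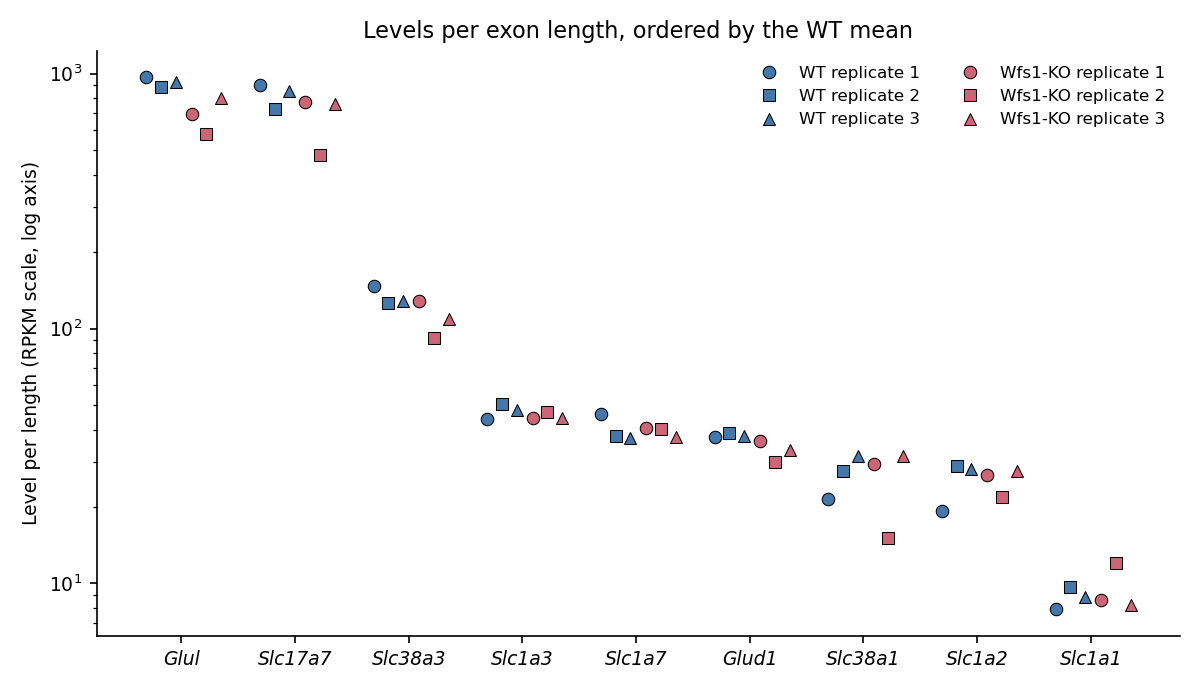
Level per exon length (RPKM scale, log axis) of each of the 9 genes, ordered by the WT mean; each point is 1 retina, blue for WT and red for Wfs1-KO, with the symbol giving the replicate. Glul and Slc17a7 lie between 479 and 968 in every retina, Slc38a3 between 91.6 and 147, and Slc1a1 between 7.93 and 12.

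Between genotypes, 0 of the 9 genes had an adjusted p under 0.05 in edgeR's quasi-likelihood test, a threshold that 2 of the 18547 tested genes (0.0108%) passed. Without Wfs1-KO replicate 2, again 0 of the 9 passed, against 24 of 19178 genes (0.125%), and DESeq2 on all 6 retinas gave 0 of the 9, against 0.246% of its genes, with 0 of the 9 under an unadjusted p of 0.05. At an unadjusted p under 0.05, 1 of the 9, Glul, was lower in Wfs1-KO retinas, where 0.566% of all tested genes were lower, and 0 were higher, where 2.24% of all genes were. Without Wfs1-KO replicate 2 these counts were the same, with 2.39% of all genes lower and 2.8% higher. For 2 of the 9 genes, Glul and Glud1, each mutant retina lay below each WT retina, which held for 3.94% of all genes, and for 0 each mutant lay above, which held for 5.01%. Without Wfs1-KO replicate 2 the same 2 genes did not overlap, but 11.4% of all genes were then lower without overlap. The fitted fold change was below 0 for 8 of the 9 genes (7 of 9 without Wfs1-KO replicate 2), compared with 47.2% (50.1%) of all genes. Several of these values were close to 0, and the median log2 fold change of the 9 was -0.08, against 0.02 over all tested genes. Without that retina it was -0.09, against -0.0014.

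**Figure D2:**
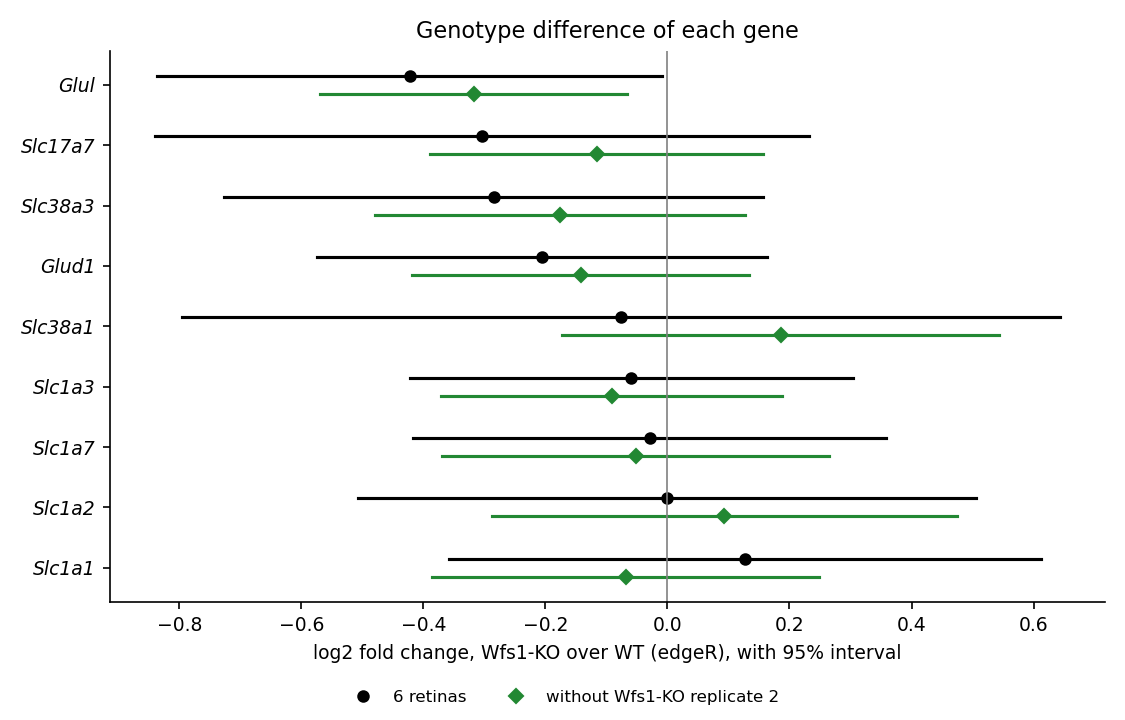
Log2 fold change of each gene, Wfs1-KO over WT, from edgeR, with its 95% interval, on all 6 retinas (black circles) and without Wfs1-KO replicate 2 (green diamonds). Glul, at -0.42 and -0.32, is the gene whose 2 intervals lie below 0.

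Glul, the glial enzyme that turns glutamate into glutamine, has the identifier ENSMUSG00000026473.15 and spans 153899944 to 153909723 of chromosome 1 (mm10, plus strand). The WT retinas had 3245, 2967 and 3112 CPM of Glul in replicates 1, 2 and 3, and the Wfs1-KO retinas had 2325, 1949 and 2683 CPM. All mutant retinas were thus lower, and the gap between the highest mutant (replicate 3) and the lowest WT retina (replicate 2) was smaller than the gaps among the mutants. The log2 fold change of Glul was -0.42, with a standard error of 0.18, a 95% interval from -0.84 to -0.0083, an unadjusted p of 0.0466 and an adjusted p of 0.979 (edgeR). Without Wfs1-KO replicate 2, the lowest of the 3 mutants, the same fit gave -0.32 for Glul, with an interval from -0.57 to -0.07 and an adjusted p of 0.792. Glul was singled out by the study on these same libraries and is not an independent choice. The study also reported less glutamine synthetase protein by immunofluorescence, and ran RT-qPCR of selected genes on other samples. Neither was examined here.

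Glud1, the mitochondrial enzyme that deaminates glutamate, lies on chromosome 14 from 34310727 to 34345265 (plus strand). Glud1 had 127, 132 and 129 CPM in the WT retinas, a narrow range, and 122, 101 and 113 CPM in Wfs1-KO replicates 1, 2 and 3. All mutants were below all WT retinas, but replicate 1 lay only just below. Its log2 fold change was -0.21, with a 95% interval from -0.57 to 0.16 (adjusted p = 0.979, edgeR), and -0.14, from -0.42 to 0.13, without Wfs1-KO replicate 2.

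The glutamine carriers differed from each other mostly in how far single retinas departed. Slc38a3, through which Müller glia release glutamine (chromosome 9, 107650634 to 107668968, minus strand), had 524, 448 and 455 CPM in the WT retinas and 457, 326 and 388 CPM in the mutants. Mutant replicates 2 and 3 were below every WT retina and replicate 1 fell within their range. The log2 fold change of Slc38a3 was -0.28 (95% interval -0.73 to 0.16), and -0.18 (-0.48 to 0.13) without replicate 2. Slc38a1, a glutamine carrier of neurons (chromosome 15, 96571418 to 96642913, minus strand), had 229, 295 and 339 CPM in WT and 317, 162 and 339 CPM in the mutants, so that mutant replicates 1 and 3 were close to the highest WT retina and replicate 2 lay below the WT range. Its log2 fold change went from -0.08 (-0.80 to 0.64) to 0.19 (-0.17 to 0.54) when replicate 2 was left out. Both genes had adjusted p-values from 0.968 to 0.982 in the 2 edgeR fits.

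**Figure D3:**
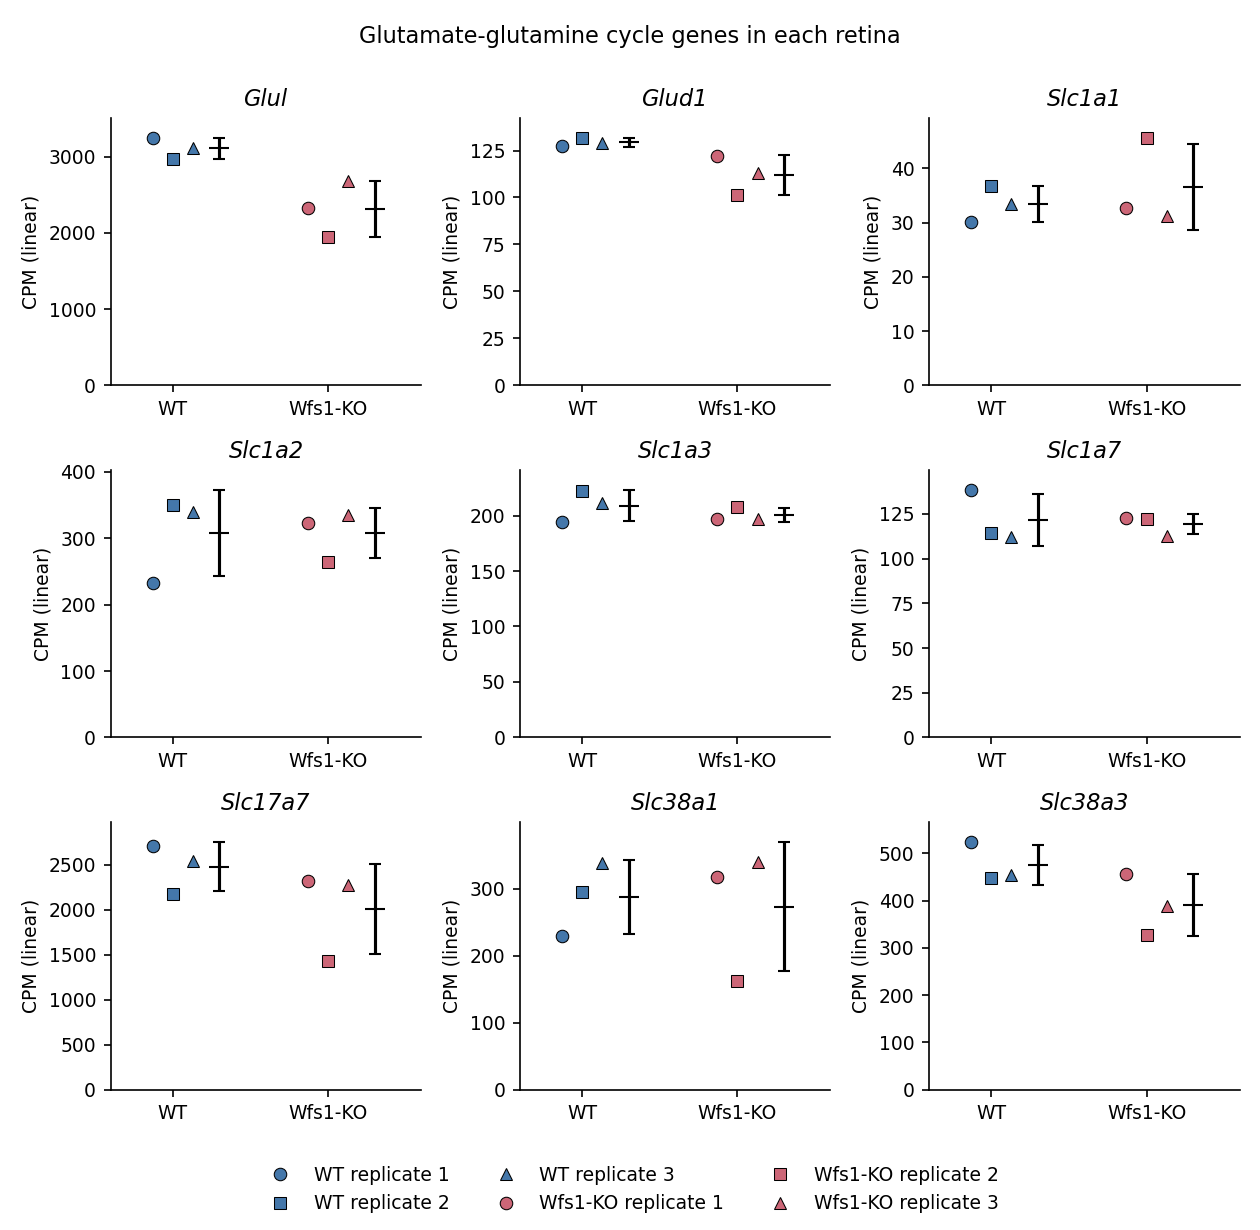
CPM (linear axis from 0) of each gene in the 3 WT (blue) and 3 Wfs1-KO (red) retinas, with the symbol giving the replicate and the black bar the mean and SD of each genotype (n = 3). For Glul and Glud1 the red points all lie below the blue ones, and the red square, Wfs1-KO replicate 2, is the lowest point for Glul, Glud1, Slc17a7, Slc38a1 and Slc38a3 and the highest for Slc1a1.

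The 4 carriers that take up glutamate at the plasma membrane showed overlapping genotypes. Slc1a3, the Müller cell carrier (chromosome 15, 8634124 to 8710764, minus strand), had 194, 222 and 211 CPM in the WT retinas and 197, 208 and 197 CPM in the mutants, with all mutants inside the WT range. The log2 fold change of Slc1a3 was -0.06, with a 95% interval from -0.42 to 0.30. In the same fit Glul was at -0.42, about the lower end of that interval. Without Wfs1-KO replicate 2, Slc1a3 was at -0.09 (-0.37 to 0.19), which still allows a change as large as the -0.32 fitted for Glul without that retina. Slc1a2 (chromosome 2, 102658659 to 102790784, plus strand) had 233, 351 and 339 CPM in WT and 323, 265 and 334 CPM in the mutants. WT replicate 1 was the lowest retina for Slc1a2, and Wfs1-KO replicate 2 the next. The fitted log2 difference was -0.00029 with an interval from -0.51 to 0.51, and 0.09 (-0.29 to 0.47) without Wfs1-KO replicate 2.

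Slc1a7 (chromosome 4, 107968332 to 108013532, plus strand) had 138, 114 and 112 CPM in WT and 123, 122 and 113 CPM in the mutants, all within the WT range, with a log2 fold change of -0.03 (-0.42 to 0.36), and -0.05 (-0.37 to 0.26) without replicate 2. Slc1a1 (chromosome 19, 28835074 to 28913960, plus strand) had 30.1, 36.7 and 33.5 CPM in WT and 32.6, 45.6 and 31.3 CPM in the mutants, so that 1 mutant, replicate 2, was above all WT retinas. Its log2 fold change of 0.13 (-0.36 to 0.61) became -0.07 (-0.39 to 0.25) without that retina. The adjusted p-values of these 4 carriers were between 0.979 and 1 in the edgeR fit of all 6 retinas.

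Of the summed level of the 4 carriers per exon length, Slc1a3 made up 38.8% ± 1.11 in WT and 37.9% ± 0.924 in Wfs1-KO retinas, and Slc1a7 made up 33.2% ± 5.23 and 32.9% ± 1.06 (SD, n = 3 each). Slc1a2 took 20.7% ± 3.75 and 21.2% ± 2.84, and Slc1a1 took 7.2% ± 0.418 and 7.99% ± 1.63. The make-up of glutamate carriers at the transcript level thus differed between genotypes by less than the larger of the 2 SDs for each of the 4. Slc1a3 and Slc1a7 exchanged first place in WT replicate 1, where Slc1a7 reached 39.3%.

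Slc17a7, which loads glutamate into synaptic vesicles (chromosome 7, 45163949 to 45176142, plus strand), had 2709, 2174 and 2546 CPM in the WT retinas. The Wfs1-KO retinas had 2313, 1431 and 2274 CPM. Mutant replicates 1 and 3 lay within the WT range and replicate 2 well below it. The log2 fold change of Slc17a7 was -0.30 (95% interval -0.84 to 0.23, adjusted p = 0.979, edgeR), and -0.12 (-0.39 to 0.16) without Wfs1-KO replicate 2.

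Ratios of transcripts within a retina, which need no scaling between libraries, were compared for 12 pairs by a two-sided exact permutation test. With 3 against 3 retinas the smallest p this test allows is 0.1, so that no ratio could pass, and after Benjamini-Hochberg adjustment over the 12 all were at 0.667 or above. Glul per Slc1a3, synthesis against uptake in the same glial cell, was 22, 17.6 and 19.4 per exon length in WT and 15.5, 12.3 and 17.9 in the mutants. The log2 difference was -0.38 (exact p = 0.2), and -0.23 without Wfs1-KO replicate 2, and the highest mutant overlapped the lowest WT retina. Glul per Slc38a3, with values from 6.58 to 7.26 in WT and from 5.4 to 7.33 in the mutants, differed by -0.14 (exact p = 0.5), with and without that retina.

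Over all 6 retinas, 1 of the 12 ratios separated the genotypes without overlap. For any ratio, a share of 0.1 of the 20 labelings of the retinas separates the groups, in either direction. The count of 1 in 12 is near that share. Slc1a3 per Slc1a2 separated the genotypes as well once Wfs1-KO replicate 2 was left out, with a log2 difference of -0.20. That ratio was 2.29, 1.74 and 1.71 in WT replicates 1, 2 and 3, and 1.67 and 1.62 in mutant replicates 1 and 3. With 1 mutant fewer, a larger share of the labelings than 0.1 separates the groups. Separations seen without replicate 2 are therefore not read as differences. Glul relative to 10 other transcripts of Müller glia (the mean log2 level of Rlbp1, Aqp4, Kcnj10, Dkk3, Sox9, Abca8a, Apoe, Clu, Hes1 and Crot) was 17.2, 15.8 and 16.8 in WT and 13, 7.95 and 15 in the mutants. The log2 difference was -0.52 (exact p = 0.1, the smallest the test allows), and -0.25 without Wfs1-KO replicate 2, with both remaining mutants still below the WT retinas. In Wfs1-KO replicate 2 the 10 markers moved in both directions, with 5 above and 5 below their WT range. Apoe had 3627 CPM there against 617 to 972 in WT, Clu had 1733 against 587 to 813, and Sox9 had 94 against 19.5 to 21.5, and Rlbp1 and Hes1 were also above. Abca8a, at 83.3 CPM against 197 to 295, and Aqp4, at 81.4 against 124 to 184, were below, as were Kcnj10, Crot and Dkk3 (the markers with values here were picked after these were seen). The summed level of the 10 markers was 1376 to 1687 RPKM in WT, 1418 and 1358 in mutant replicates 1 and 3, and 3644 in replicate 2. The 5 markers above had 1468 (Hes1) to 4135 (Sox9) bases of exon, and the 5 below had 2996 (Crot) to 5905 (Aqp4). This retina also differed from the others by transcript length, as given below. The part of the markers, and of their length, in the ratio within that retina was not tested. Relative to the same markers, Slc1a3 differed by -0.14 (exact p = 0.4) and Slc38a3 by -0.38 (exact p = 0.3), and without replicate 2 by -0.02 and -0.11.

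Among photoreceptor ratios, Slc17a7 relative to 10 rod transcripts differed by -0.19 (exact p = 0.9), and by 0.09 in the opposite direction without Wfs1-KO replicate 2. Slc1a7 relative to the same rod transcripts differed by 0.12 (exact p = 0.3) and Slc1a2 relative to 8 cone transcripts by -0.03 (exact p = 0.8), and without that retina by 0.16 and 0.24. Slc17a7 per Slc17a6, the vesicular transporter of ganglion cells, was 34.4 to 54.0 in WT and 39.9 to 46.9 in the mutants, a log2 difference of -0.01 with and without that retina. The remaining ratios, Glul per Glud1, Slc1a3 per Slc1a2 and Slc1a3 per Slc17a7, differed by -0.22, -0.07 and 0.27, with exact p-values of 0.2, 0.5 and 0.4, and without Wfs1-KO replicate 2 by -0.18, -0.20 and 0.02.

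**Figure D4:**
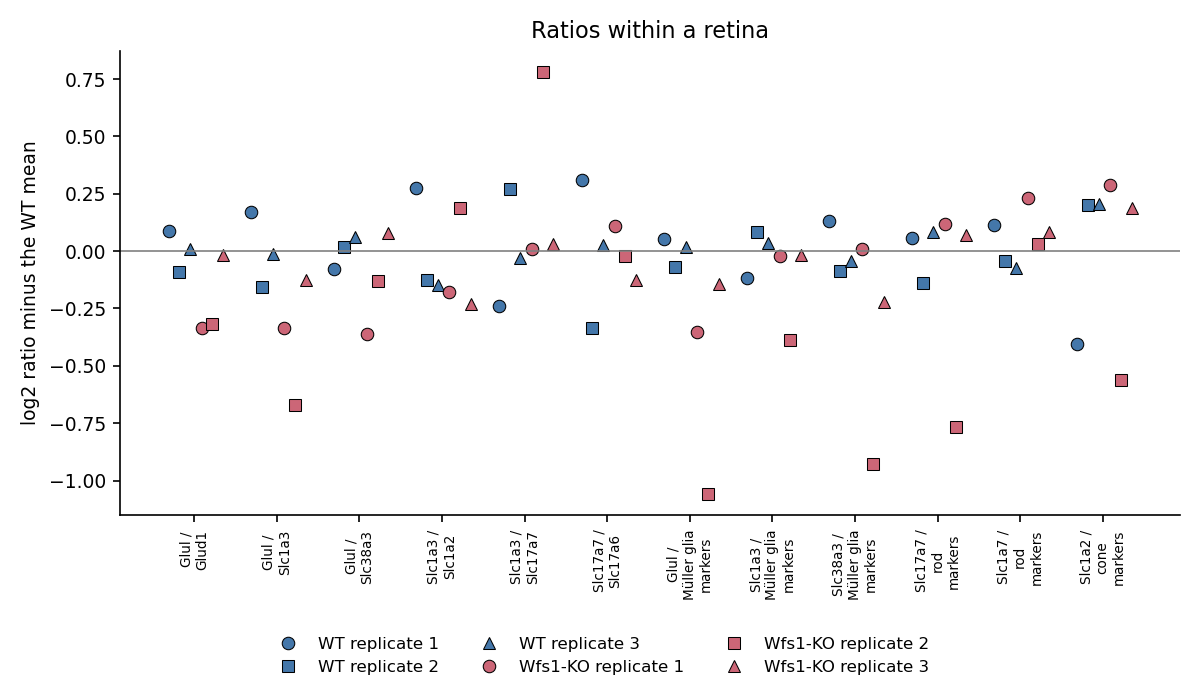
The 12 ratios within each retina on the log2 scale, minus the WT mean of that ratio, so that 0 (grey line) is the WT mean; blue points are WT and red points Wfs1-KO retinas, with the symbol giving the replicate. Glul over the Müller glia markers is the ratio in which the 3 red points lie below the 3 blue ones, and the red square, Wfs1-KO replicate 2, is the lowest point in that and 5 other ratios.

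The other genes of the pathway were taken from 4 lists of enzymes and carriers, 53 genes in all, of which 50 had enough counts to be tested. None of the 50 passed the threshold over all genes, 1 was higher and 0 were lower at an unadjusted p under 0.05, and 2, Gpt2 and Bcat1 (named after their values were seen), were lower without overlap. Over all tested genes these shares were 2.24%, 0.566% and 3.94%, so that the counts in the pathway were near the background. The count past the threshold was also 0 with DESeq2 and with voom. Their median log2 fold change was -0.06, and -0.0028 without Wfs1-KO replicate 2. By list, the median was -0.09 for 24 enzymes, -0.08 for 7 genes of GABA made from glutamate, 0.07 for 10 glutamate carriers and 0.02 for 9 glutamine carriers. With Wfs1-KO replicate 2 left out, these medians were -0.04, 0.14, -0.07 and 0.16, so that those of the GABA genes and the glutamate carriers changed sign. Nags had no counts in any retina, and Slc38a4 and Slc6a14 were below the filter.

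The single gene with an unadjusted p under 0.05 was Slc7a11, which exports glutamate in exchange for cystine. Slc7a11 had 2.98, 5.72 and 5.79 CPM in WT and 11.1, 34.7 and 5.7 CPM in the mutants, so that replicate 3 lay within the WT range, replicate 1 above it and replicate 2 far above. Its log2 fold change was 1.84 with a 95% interval from 0.31 to 3.37 (unadjusted p = 0.0249, adjusted p = 0.979, edgeR), and 0.82, from 0.09 to 1.56, without Wfs1-KO replicate 2.

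The pathway genes named below overlapped between genotypes. Gls2, a mitochondrial enzyme that breaks down glutamine, had 11.4 ± 1.8 CPM in WT and 9.99 ± 2.11 CPM in mutants (SD, n = 3 each), with a fitted log2 difference of -0.19, and -0.06 without Wfs1-KO replicate 2. The aspartate aminotransferases, which exchange the amino group between glutamate and aspartate, had log2 fold changes of -0.13 for Got1 (cytosol) and 0.20 for Got2 (mitochondria), and of -0.05 and 0.0041 without Wfs1-KO replicate 2. Slc17a6 and Slc17a8, the other vesicular glutamate transporters, had log2 fold changes of -0.29 and -0.13, and of -0.10 and -0.06 without that retina. Slc1a4 and Slc1a5, neutral amino acid carriers of the Slc1a family, had 0.25 and -0.08, and 0.20 and -0.03 without it. Slc38a2, a glutamine carrier related to Slc38a1, had 0.02 and 0.16. The adjusted p-values of these genes in the fit of 6 retinas were between 0.979 and 0.991 (edgeR).

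Markers of the cell types of the retina were set beside these results. All 10 rod markers were tested, and their median log2 fold change was -0.18, with 3 lower without overlap, where 3.94% of all genes were. Without Wfs1-KO replicate 2 it was -0.23, with 10 of 10 below 0 and 8 lower without overlap, where 11.4% of all genes were. Their summed level was 23608 to 26526 RPKM in WT and 20928 to 22738 RPKM in Wfs1-KO retinas. The median of the 10 Müller glia markers was -0.01 and of the 8 cone markers -0.05, and -0.06 and -0.07 without that retina. Of 8 markers of astrocytes and reactive glia, 6 were higher at an unadjusted p under 0.05 (2.24% of all genes), and 3 without Wfs1-KO replicate 2 (2.8%), with a summed level of 80.4 to 92.9 RPKM in WT, 123 and 105 RPKM in mutant replicates 1 and 3, and 321 RPKM in replicate 2. In Wfs1-KO replicate 2 the summed level was above the WT range for every marker list except rods, neurons included. It was 745 RPKM for blood against 18.6 to 62.7 in WT, 203 for microglia against 42.3 to 48.2, 706 for bipolar cells against 371 to 448, 704 for ganglion cells against 432 to 532 and 64.5 for pigment epithelium against 22.8 to 34.8. In mutant replicates 1 and 3 pigment epithelium was below the WT range (15.6 and 11.4 RPKM). Of the 6 lens markers 3 were tested. The summed level of all 6 was 0.614 to 0.689 RPKM in WT, the lowest of the marker lists, and 1.11 to 1.66 RPKM in the mutants. No marker list had a gene at 0 in all retinas. The median log2 fold changes were 2.27 for blood, 1.00 for reactive glia, 0.97 for lens, 0.81 for microglia and 0.20 for pigment epithelium. When Wfs1-KO replicate 2 was left out they were -0.48, 0.62, 1.53, 0.06 and -0.85, so that blood and pigment epithelium changed direction. They were 0.16 for bipolar, 0.04 for amacrine, 0.14 for horizontal and -0.11 for ganglion cell markers, 0.08 for endothelium and 0.13 for oligodendrocytes. Without that retina these were 0.01, 0.03, 0.20, -0.27, 0.04 and 0.02, and 4 of the 9 ganglion cell markers were then lower without overlap (11.4% of all genes). The part of these markers in the values of the 9 genes was not tested. Nor was the part of transcript length, described next, in the levels of these markers.

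The retinas also differed by transcript length. For the 1152 tested genes with more than 8 kb of exon, the median deviation in log2 CPM from the mean of the 6 retinas was -0.29 in WT replicate 1 and -0.52 in Wfs1-KO replicate 2, against 0.17 to 0.22 in the other 4 retinas. For the 5620 genes under 2 kb it was 0.07 and 0.57 in these 2 retinas, against -0.15 to -0.11 in the others. The longest transcripts among the 9 genes were Slc1a2 (12092 bases) and Slc38a1 (10738 bases). Slc1a2 deviated by -0.39 in WT replicate 1 and by -0.20 in Wfs1-KO replicate 2, and Slc38a1 by -0.24 and -0.74, and both were above their mean in the other 4 retinas. The other 7 genes had 2990 to 4404 bases of exon. The median deviation of the 6755 genes of 2 to 4 kb was between -0.02 and 0.05 in all 6 retinas. Slc1a3, with 4404 bases, falls in the class of 4 to 8 kb (5020 genes). The median of that class was -0.33 in Wfs1-KO replicate 2, -0.05 in WT replicate 1 and 0.10 to 0.11 in the others. Slc1a3 itself deviated by 0.02 in Wfs1-KO replicate 2. Glul, with 3353 bases, deviated by 0.15 to 0.28 in the WT retinas and by -0.20, -0.46 and 0.0059 in the mutants.

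Patterns were compared by the root-mean-square difference of log2 CPM over the 6 retinas, each gene centred on its own mean. Among the 9 genes, the closest to Glul was Slc17a7 (0.15) and the closest pair was Glud1 and Slc38a3 (0.11), while Slc38a1 was the farthest from any other, at 0.26 from Slc1a2. Among 10325 other genes with at least 10 CPM on average, Nol9, Dusp1 and Zfp623 were closest to Glul, with differences of 0.06 each, compared with a spread of Glul itself of 0.26. For Slc1a3 they were Zfp286, 2810013P06Rik and Mrrf (0.02 to 0.03), and for Slc17a7 Rnf10, Galnt10 and Hk1 (0.02 to 0.03). These are descriptions over 6 libraries. Wfs1-KO replicate 2 was the retina farthest from the mean for Glul and Slc17a7 and the closest to it for Slc1a3.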

How the data were processed

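RNA-seq libraries of whole retinas from 3 WT and 3 Wfs1-KO mice were analysed. Per the labels and the methods, the authors trimmed the reads with Trimmomatic, mapped them to mm10 with STAR, counted reads per gene with featureCounts (version 1.6.4 in the submitters' processing notes) and deposited the counts unnormalized, next to each gene's summed exon length. Versions of the trimmer and the mapper differ between the labels and the methods, as do the strain and the RNA kit. The table has 8 library columns, of which C was read as control (WT) and W as Wfs1 mutant with the replicate number, and 2 columns were left aside because no listed sample carries their names. Identical counts in any pair of libraries made up at most 1.13% of genes, so none was taken as a duplicate.

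Genotypes were compared over all 18547 genes kept by the default filter with edgeR 4.0.16 in R 4.3.3 (TMM, quasi-likelihood test, genotype as the only term) and Benjamini-Hochberg adjustment at 0.05. The standard error is the size of the log2 fold change divided by the square root of F. DESeq2 1.42.0 and limma 3.58.1 (voom) were alternatives. Ratios used a prior count of 0.5 and deviations one of 2. The named genes are the 9 members, 9 further genes fixed by name, any other pathway gene with an unadjusted p under 0.05 in either of the edgeR fits (there was none), and the 3 genes closest in pattern. The members and lists were chosen with earlier results of these data known. Each retina is a separate mouse. Intervals of edgeR are at 95%. An item of the pathway, with its ratio, is not reported here and enters no count of the pathway lists or ratios. The code was tested on simulated data with known answers.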

Additional observations from a re-analysis of the deposited data

How the results depend on the processing

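No alternative brought any of the 9 genes or of the 50 other pathway genes past the threshold. Over the 14 alternatives the log2 fold change of Glul stayed between -0.54 and -0.32, with adjusted p-values from 0.792 to 1, and Glud1, Slc1a3, Slc17a7 and Slc38a3 also kept their direction. The count over all genes, 2, was 49 with DESeq2, 95 with DESeq2 and Wfs1-KO replicate 2 left out, 9 without a filter, 1 with the replicate block and between 0 and 24 when single retinas were left out, the 24 without Wfs1-KO replicate 2; without WT replicate 1, 2 or 3 it was 0 (edgeR), while 314, 303 and 378 genes were under an unadjusted p of 0.05. Same-numbered retinas are different mice, and their deviations correlated by -0.23, -0.11 and 0.08, so that the numbers do not pair them. The cause of these changes was not tested.

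Directions near 0 changed. The log2 fold change of Slc1a2 was 0.018 with voom, 0.016 with upper-quartile scaling, 0.014 with 10 counts in every retina, 0.016 with the replicate block and 0.092 with DESeq2 and Wfs1-KO replicate 2 left out, where Slc1a1 was at -0.069 and Slc38a1 at 0.19. Leaving out single retinas gave -0.17 to 0.10 for Slc1a2, -0.069 to 0.22 for Slc1a1, -0.10 to 0.073 for Slc1a7, -0.26 to 0.19 for Slc38a1, -0.33 to 0.24 for Slc1a5 and -0.13 to 0.16 for Slc38a2. Likewise the log2 difference ranged from -0.20 to 0.063 for Slc1a3 per Slc1a2, -0.18 to 0.14 for Slc17a7 per Slc17a6, -0.35 to 0.095 for Slc17a7 per rod markers and -0.23 to 0.24 for Slc1a2 per cone markers. The number of members without overlap was 2 to 4, the 4 without WT replicate 1. No share of all genes is given for that setting, so that the 4 is not set against a background. Without Wfs1-KO replicate 2, 11.4% of all genes were lower without overlap, against 3.94% over 6 retinas. In the WT order 7 to 9 of the 9 genes kept their place, 7 without WT replicate 1. An unadjusted p under 0.05 was reached by 1 of the 9 genes in 7 of the 14 alternatives and by 0 in the others. Over the whole table, the genes under it ranged from 303 (edgeR without WT replicate 2) to 1241 (no filter), against 521 in the main fit. With 3 retinas per genotype, of which 1 stood apart, differences of the size seen here lie within the intervals given.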
